A study of Mus musculus with 7 samples.

Results

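The genes described here are 9 genes of epithelial ion transport and of the guanylin system in the mouse ileum: Slc12a2, Cftr, Slc9a2, Slc9a3, Slc26a3, Slc26a6, Atp1b1, Guca2a and Guca2b. They were taken from the gene count table by name, 9 of the 38293 genes listed, and all 9 were among the 14869 genes that passed the filter on low counts. The set was chosen by a value of the diet comparison itself, since Slc12a2 was higher on the low cystine diet. The diet differences of the 9 genes are therefore given as a description, with their standard errors and without a test.

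RNA was sequenced from mucosal scrapings of the ileum (epithelium with its lamina propria, muscle left behind) from 4 mice on the normal cystine diet (normal cys) and 3 mice on the low cystine diet (low cys). The mice were male C57BL/6NRJ animals, 8 weeks old and housed individually. All of them received the AIN93G high fat, low calcium control diet for 1 week and then 1 of the diets for 2 weeks, with 40% of the energy from fat, and were fasted before sacrifice. Total cystine was 0.38% of the normal cys diet and 0.08% of the low cys diet, in which alanine took the place of the added cystine, so cystine and alanine differed together. The normal cys libraries are named X17SI4, X32SI4, SI9 and X1SI4, and the low cys libraries X23SI4, X26SI4 and X10SI4.

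The epithelium of the small intestine both secretes and absorbs salt, and water follows. For secretion, the sodium pump keeps sodium low in the cell, the cotransporter encoded by Slc12a2 carries chloride in across the basolateral membrane, and the channel encoded by Cftr lets it out into the lumen. For absorption, sodium/proton exchangers work beside anion exchangers in the brush border. Guanylin and uroguanylin, small peptides released into the lumen, bind the receptor guanylate cyclase C and raise cyclic GMP, which promotes chloride and bicarbonate secretion and inhibits sodium uptake.

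The genes of guanylin and uroguanylin lie side by side on chromosome 4 of GRCm38 and face each other on opposite strands. Guca2a (ENSMUSG00000023247) is at chr4:119637704-119639471 on the plus strand and Guca2b (ENSMUSG00000032978) at chr4:119656607-119658954 on the minus strand, each with 3 exons, and 17135 bases separate them. Their promoters are shown because these neighbours had the same library, X17SI4, as their lowest of the normal cys libraries. Each sequence is the 250 bases before the RefSeq transcription start (GRCm38.p6), chr4:119637482-119637731 on the plus strand for Guca2a and chr4:119658946-119659195 on the minus strand for Guca2b. Its last bases fall within the first exon as the counts annotation draws it. Capitals mark matches to 3 motifs that were searched on both strands, and no matches overlap. The first motif is AGATAA, a core that transcription factors of the GATA family bind. In capitals on the printed strand it appears in its reverse complement. The second is GTTAAT, part of the site that HNF1 factors bind, and the third is TATAAA, the TATA box.
Guca2a: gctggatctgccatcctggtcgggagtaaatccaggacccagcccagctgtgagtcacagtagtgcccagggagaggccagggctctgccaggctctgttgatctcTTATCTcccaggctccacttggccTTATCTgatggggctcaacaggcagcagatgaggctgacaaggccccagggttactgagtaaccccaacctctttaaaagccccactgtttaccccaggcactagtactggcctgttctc
Guca2b: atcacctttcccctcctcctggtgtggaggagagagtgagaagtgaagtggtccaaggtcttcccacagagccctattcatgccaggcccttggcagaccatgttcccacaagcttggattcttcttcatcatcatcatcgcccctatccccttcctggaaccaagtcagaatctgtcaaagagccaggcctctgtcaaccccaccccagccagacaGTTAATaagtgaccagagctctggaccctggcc

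The Guca2a promoter held AGATAA 2 times on the other strand, at 144 and 120 bases before the start, and neither other motif. The Guca2b promoter held GTTAAT 1 time, 33 bases before the start, and neither other motif, so these letters are not shared between the neighbours. Of 32851 RefSeq promoter windows of the same length, 9.99% held AGATAA, 6.43% held GTTAAT and 12.4% held TATAAA. Of the 9 genes, 7 had a RefSeq promoter. Among them Slc26a3 held GTTAAT 2 times (94 and 84 bases before the start) and TATAAA 1 time (30 bases before the start), and Cftr, Slc9a3, Slc26a6 and Atp1b1 held none of the 3 motifs. Each match is a description of these letters and not of binding.

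Library totals were between 19712355 and 22412703 counts on normal cys and between 14888760 and 21942518 on low cys, and every value below is in CPM, the counts of a gene scaled to the library total after TMM normalization. The biological coefficient of variation within a diet was 25.5%. In edgeR's quasi-likelihood test, 0 of the 14869 genes (0%) had a Benjamini-Hochberg adjusted p-value under 0.05, and with DESeq2 16 genes did (0.108%). Neither tool called 1 of the 9 genes at that level. At an unadjusted edgeR p-value under 0.05 there were 817 genes, a count that was 1763 without X17SI4, 403 without SI9, 258 without X23SI4 and 522 without X10SI4. Of the tested genes, 2.66% were higher and 2.83% lower on low cys at that level, and of the 9 genes 1 was higher and 0 lower. The diets did not overlap in 3.32% of the tested genes with the low cys libraries higher and in 3.51% with them lower. Among the 9 genes this held for 1 (Slc12a2) and for 0. Nothing is read from these counts for the 9 genes, since Slc12a2 led to their choice.

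The estimated diet difference was positive for 3 of the 9 genes (Slc12a2, Cftr and Slc26a3) and negative for 6. All log2 fold changes are low cys minus normal cys. Their median was -0.20 over the 9 genes and 0.01 over all genes tested, of which 51.2% had a higher estimate on low cys. In a scraping, fewer cells of a type and less RNA per cell cannot be told apart, and this applies to every level given here.

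**Figure D1:**
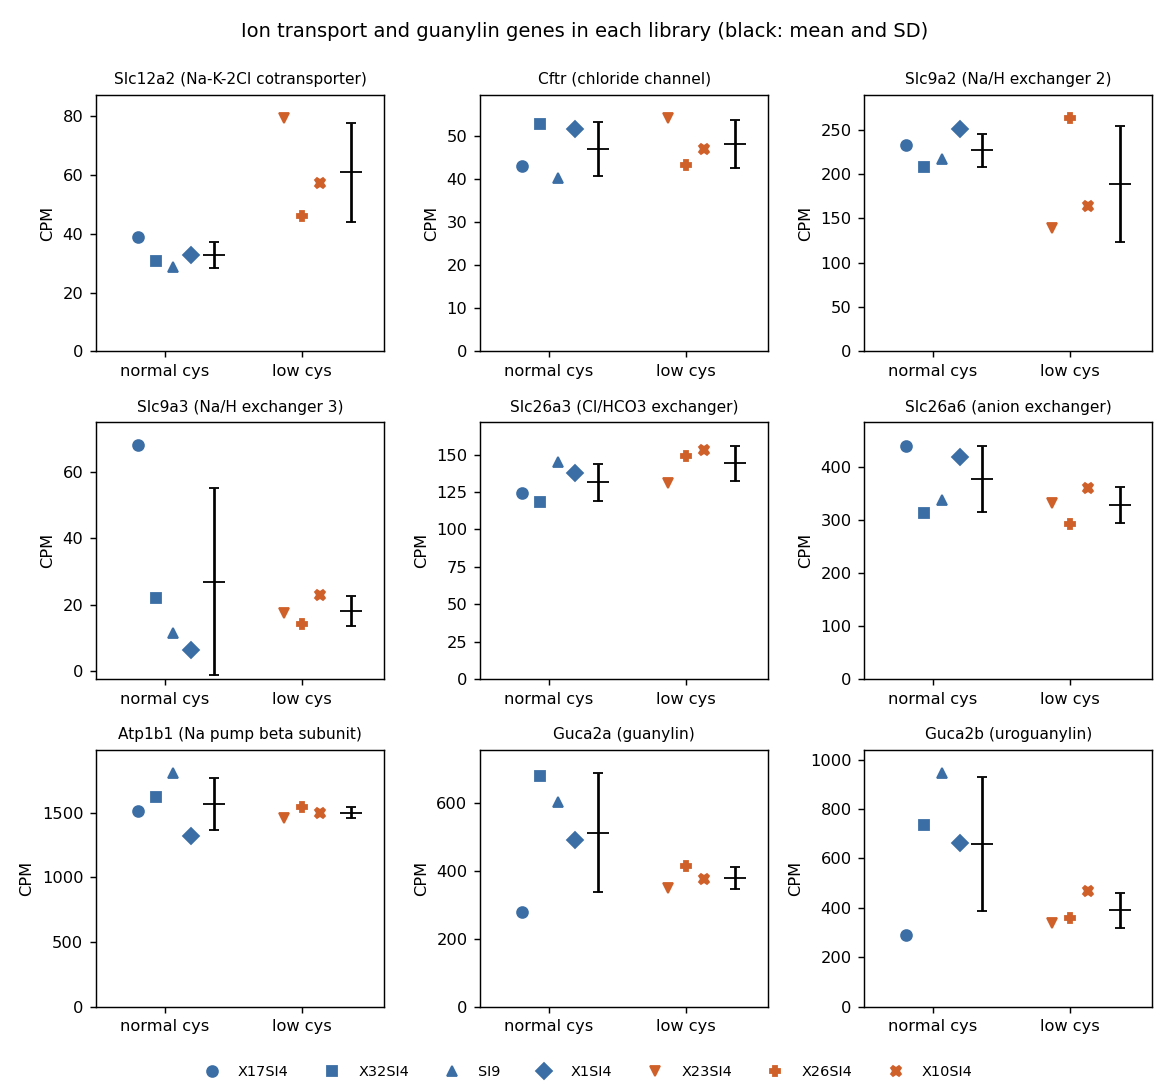
CPM of each of the 9 genes in each of the 7 libraries, normal cys in blue and low cys in orange, 1 symbol per library, with the mean and SD of each diet in black (n = 4 and n = 3). The diets are separate in the Slc12a2 panel and overlap in the other 8, and X17SI4 is the high point of Slc9a3 and the low point of Guca2a and Guca2b.

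Slc12a2 (ENSMUSG00000024597, chromosome 18) encodes the basolateral sodium-potassium-chloride cotransporter that loads epithelial cells with chloride. It measured 39.0 CPM in X17SI4, 30.7 in X32SI4, 28.9 in SI9 and 32.7 in X1SI4 on normal cys, and 79.3 CPM in X23SI4, 46.0 in X26SI4 and 57.2 in X10SI4 on low cys. All low cys libraries lay above all normal cys libraries, with X23SI4 the highest and X26SI4 the closest to the normal cys range. The means were 32.8 ± 4.39 CPM (SD, n = 4) and 60.8 ± 16.9 CPM (SD, n = 3), a 1.85-fold difference and a log2 difference of 0.89 (standard error 0.191). The values rest on 549 to 1943 counts per library. With 1 library left out, the log2 fold change was between 0.66 (without X23SI4) and 1.08 (without X26SI4).

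Slc12a2 is known to be most abundant in crypt cells, so its values are set beside a list of 11 markers of crypt stem and proliferating cells, among them Lgr5, Olfm4 and Mki67. The summed crypt markers were 368 CPM in X17SI4, 258 in X32SI4, 149 in SI9 and 133.0 in X1SI4 on normal cys, and 419 CPM in X23SI4, 225 in X26SI4 and 372 in X10SI4 on low cys. The diets overlapped in this sum, although all 11 markers had a higher mean on low cys. X17SI4 had nearly the crypt marker sum of X10SI4 and a lower Slc12a2 level, 39.0 against 57.2 CPM. X23SI4 was the highest library in both measures, and the low cys libraries had the same order in both. On normal cys X17SI4 was the highest in both, while the lowest was X1SI4 for the crypt markers and SI9 for Slc12a2. The part of crypt cell content in the Slc12a2 difference was not tested.

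Cftr (ENSMUSG00000041301, chr6:18170687-18322768, plus strand, 29 exons) encodes the apical chloride and bicarbonate channel that cyclic AMP and cyclic GMP signalling opens. It measured 43.0, 52.8, 40.1 and 51.5 CPM in X17SI4, X32SI4, SI9 and X1SI4, and 54.1, 43.1 and 46.9 CPM in X23SI4, X26SI4 and X10SI4. Neither diet stood higher, and the libraries were mixed. The means were 46.8 ± 6.24 CPM (SD, n = 4) and 48.0 ± 5.57 CPM (SD, n = 3), and the log2 fold change was 0.04 (standard error 0.143). The sign of this estimate turned negative without X17SI4, without SI9 and without X23SI4. A gene on the opposite strand, Gm15592, overlaps 1.66% of the Cftr exons, and the strand setting of the counting is not given in the sources used here.

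Over the 7 libraries Slc12a2 ranged from 28.9 to 79.3 CPM and Cftr from 40.1 to 54.1 CPM. Within the low cys libraries X23SI4 was highest and X26SI4 lowest in both genes. Within the normal cys libraries SI9 was lowest in both.

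Slc9a2 (ENSMUSG00000026062, chr1:40681712-40768885, plus strand, 12 exons) and Slc9a3 (ENSMUSG00000036123, chr13:74121515-74166064, plus strand, 16 exons) encode the brush border sodium/proton exchangers NHE2 and NHE3. Slc9a2 measured 233, 208, 217 and 250.2 CPM in X17SI4, X32SI4, SI9 and X1SI4, and 139, 263 and 164 CPM in X23SI4, X26SI4 and X10SI4. On low cys X23SI4 and X10SI4 were below every normal cys library, and X26SI4 was above them all. The means were 227 ± 18.6 CPM (SD, n = 4) and 189 ± 65.6 CPM (SD, n = 3), and the log2 fold change was -0.27 (standard error 0.212). Without X26SI4 the log2 fold change was -0.56, and without X23SI4 it was -0.08.

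Slc9a3, the exchanger that carries most sodium uptake in this tissue and that cyclic GMP signalling inhibits, was the most variable of the 9 genes. It measured 68.2, 22.0, 11.4 and 6.45 CPM in X17SI4, X32SI4, SI9 and X1SI4, and 17.4, 14.1 and 23.01 CPM in X23SI4, X26SI4 and X10SI4. The normal cys libraries lay on both sides of the low cys libraries, with X17SI4 far above and X1SI4 below all others. The highest normal cys library was 10.6-fold the lowest, against 1.64-fold on low cys. The means were 27.0 ± 28.2 CPM (SD, n = 4) and 18.2 ± 4.52 CPM (SD, n = 3), and the log2 fold change was -0.57 (standard error 0.708). Without X17SI4 it was 0.45, in the other direction. The spread is far beyond counting error, as the values rest on 135 to 1306 counts per library.

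Slc26a3 (ENSMUSG00000001225, chr12:31390871-31473917, plus strand, 22 exons) and Slc26a6 (ENSMUSG00000023259, chr9:108854037-108912558, plus strand, 21 exons) encode apical exchangers that take up chloride in return for bicarbonate, and Slc26a6 also carries oxalate. Slc26a3 measured 124, 119, 145 and 138 CPM in X17SI4, X32SI4, SI9 and X1SI4, and 131, 149 and 153 CPM in X23SI4, X26SI4 and X10SI4. The ranges overlapped, with X26SI4 and X10SI4 just above the highest normal cys library. The means were 131 ± 12.1 CPM (SD, n = 4) and 144 ± 11.8 CPM (SD, n = 3), and the log2 fold change was 0.13 (standard error 0.125). Without X23SI4 the log2 fold change was 0.21, without X10SI4 it was 0.087, and with total counts it was 0.28.

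Slc26a6 measured 439.6, 313, 337 and 418 CPM in X17SI4, X32SI4, SI9 and X1SI4, and 333, 292 and 359 CPM in X23SI4, X26SI4 and X10SI4. Only X26SI4 was below the normal cys range. The means were 377 ± 61.4 CPM (SD, n = 4) and 328 ± 34.0 CPM (SD, n = 3), and the log2 fold change was -0.20 (standard error 0.163). The estimate was -0.12 without X17SI4, -0.10 without X26SI4 and -0.05 with libraries scaled by total counts alone.

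Atp1b1 (ENSMUSG00000026576, chr1:164437267-164458355, minus strand, 6 exons) encodes the beta subunit that brings the sodium pump to the membrane. It measured 1516, 1622, 1804 and 1322 CPM in X17SI4, X32SI4, SI9 and X1SI4, and 1462, 1542 and 1496 CPM in X23SI4, X26SI4 and X10SI4. The low cys libraries lay close together inside the wider normal cys range. The means were 1566 ± 201 CPM (SD, n = 4) and 1499.9 ± 40.1 CPM (SD, n = 3), and the log2 fold change was -0.06 (standard error 0.157). The estimate was 0.01 without SI9 and 0.08 when libraries were scaled by total counts alone. Of the 50-base stretches of the Atp1b1 transcripts, 15.8% also occur in transcripts of the neighbouring gene Nme7. Nme7 was at a mean of 3.28 CPM on normal cys and 3.32 CPM on low cys.

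Guca2a encodes guanylin. It measured 279 CPM in X17SI4, 681 in X32SI4, 603 in SI9 and 493 in X1SI4 on normal cys, and 350.2 CPM in X23SI4, 416 in X26SI4 and 375 in X10SI4 on low cys. X17SI4 was the lowest of all libraries and the other 3 normal cys libraries were above every low cys library. The means were 514 ± 175 CPM (SD, n = 4) and 380.4 ± 33.0 CPM (SD, n = 3), and the log2 fold change was -0.43 (standard error 0.271). Without X17SI4 the log2 fold change was -0.64, and without X32SI4 it was -0.25.

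Guca2b encodes uroguanylin, the second ligand of the same receptor. It measured 290.0 CPM in X17SI4, 736 in X32SI4, 944 in SI9 and 663 in X1SI4 on normal cys, and 340.3 CPM in X23SI4, 358 in X26SI4 and 469.9 in X10SI4 on low cys. The order was the same kind as for guanylin, with X17SI4 the lowest and the other 3 normal cys libraries above all low cys libraries. The means were 658 ± 273 CPM (SD, n = 4) and 389 ± 70.3 CPM (SD, n = 3), and the log2 fold change was -0.76 (standard error 0.346). Leaving out X17SI4 gave -1.003, and leaving out SI9 gave -0.53. Among the normal cys mice the highest library was 3.26-fold the lowest, and among the low cys mice 1.38-fold.

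Both ligands together measured 569, 1416, 1547 and 1156 CPM in X17SI4, X32SI4, SI9 and X1SI4, and 691, 773 and 845 CPM in X23SI4, X26SI4 and X10SI4. The means were 1172 ± 434 CPM (SD, n = 4) and 769.8 ± 77.4 CPM (SD, n = 3). Guanylin made up 49.0%, 48.1%, 39.0% and 42.6% of the summed counts in the normal cys libraries and 50.7%, 53.7% and 44.4% in the low cys libraries, in the same order. The exact 95% binomial intervals, which cover counting error only, were under 1 percentage point to either side. The range within each diet was wider than these intervals, which leave out the error of library preparation. The diets overlapped, with means of 44.7% ± 4.73 (SD, n = 4) and 49.6% ± 4.76 (SD, n = 3).

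Guanylin and uroguanylin come from several epithelial cell types, so their sum is set beside the markers of 3 of them. The summed CPM of 5 tuft cell markers (Dclk1, Trpm5, Avil, Pou2f3 and Sh2d6) was 41.6, 87.9, 78.3 and 86.7 in X17SI4, X32SI4, SI9 and X1SI4, and 54.1, 52.6 and 52.3 in X23SI4, X26SI4 and X10SI4. As with the guanylins, X17SI4 was lowest and the other normal cys libraries were highest, and 0 of the 5 markers had a higher mean on low cys. The 10 villus enterocyte markers, among them Apoa1 and Alpi, summed to 42575, 43580, 65474 and 62644 CPM on normal cys and to 23376, 40668 and 43483 CPM on low cys, and 0 of the 10 had a higher mean on low cys. The 8 goblet cell markers summed to 14914, 12067, 12807 and 22092 CPM on normal cys and to 13046, 12335 and 12081 CPM on low cys. Of these 8 markers, 3 had a higher mean on low cys. The goblet sums did not have the guanylin order, since X17SI4 was above X32SI4 and SI9. The Paneth and enteroendocrine lists also had another order. The 7 Paneth cell markers had their highest normal cys sum in X17SI4, 4666 CPM, and 7 of the 7 had a higher mean on low cys. The 8 enteroendocrine markers summed to between 133 and 164 CPM on normal cys and between 141 and 165 CPM on low cys. The part of cell type content in the guanylin values was not tested.

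**Figure D2:**
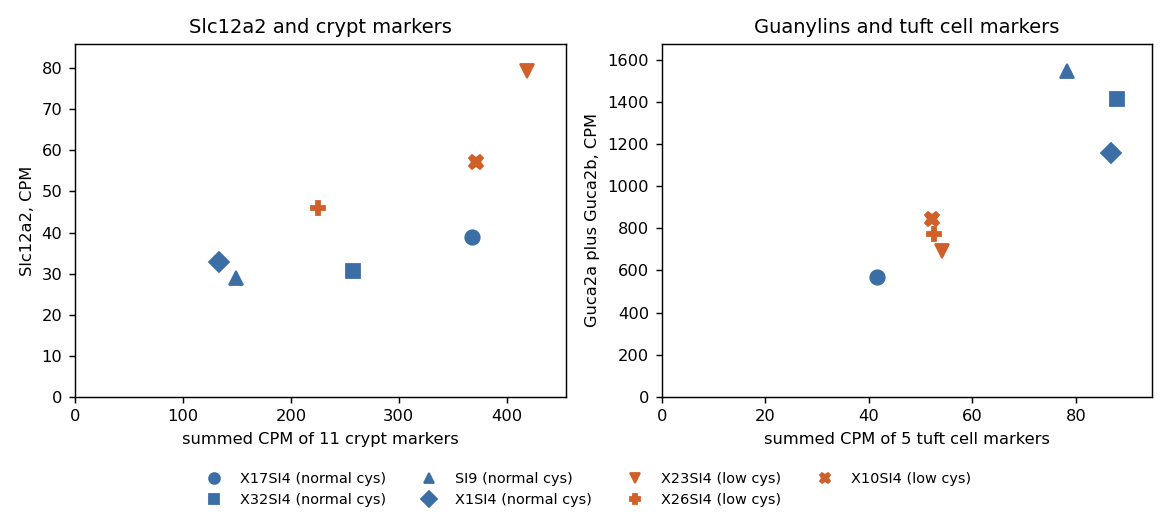
Left, Slc12a2 (CPM) against the summed CPM of 11 crypt markers; right, Guca2a plus Guca2b (CPM) against the summed CPM of 5 tuft cell markers, 1 symbol per library, normal cys in blue and low cys in orange. The villus enterocyte, goblet, Paneth and enteroendocrine lists are not drawn. X23SI4 is the highest in both crypt markers and Slc12a2, at 419 and 79.3 CPM. X17SI4 is the highest normal cys library in both, at 368 and 39.0 CPM, with Slc12a2 below X10SI4 at 372 and 57.2. X17SI4 also has the lowest guanylin sum, 569 CPM, and the lowest tuft cell marker sum, 41.6 CPM.

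A balance of secretory over absorptive transporters was taken as the mean log2 CPM of Slc12a2 and Cftr minus that of Slc9a3, Slc26a3 and Slc26a6. Slc9a2, also a brush border sodium/proton exchanger, was not part of it. The balance was -1.92 in X17SI4, -1.21 in X32SI4, -1.27 in SI9 and -0.81 in X1SI4 on normal cys, and -0.48 in X23SI4, -0.93 in X26SI4 and -1.06 in X10SI4 on low cys. The diets overlapped, since X1SI4 lay between the low cys libraries. The means were -1.30 ± 0.458 (SD, n = 4) and -0.82 ± 0.306 (SD, n = 3), a difference of 0.48 on the log2 scale. Slc12a2, which led to the choice of the genes, is part of this score, with a log2 fold change of 0.89 against 0.04 for Cftr. The difference in the balance is therefore not separate from that of Slc12a2, and no shift of the secretory genes as a group is read from it. Without X17SI4, the library with high Slc9a3, the difference in the balance was 0.28. Without X23SI4 it was 0.31. As a score over genes chosen on this contrast, it has no test.

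Levels of different genes were compared per kilobase of annotated exon. Guca2a was highest at 769 ± 242 CPM per kilobase (SD over 7 libraries), followed by Atp1b1 at 635 ± 61.3 and Guca2b at 624 ± 280.5. The ranges of these 3 genes over the libraries overlapped, so their order is not resolved. Slc26a6 followed at 148 ± 22.7 CPM per kilobase, Slc9a2 at 60.3 ± 12.9 and Slc26a3 at 21.5 ± 2.02. With this length, no range among Guca2b, Slc26a6, Slc9a2 and Slc26a3 overlapped the next. The lowest were Slc9a3 at 9.32 ± 8.31, Slc12a2 at 6.88 ± 2.78 and Cftr at 6.10 ± 0.708 CPM per kilobase. Their ranges overlapped each other, and that of Slc9a3 also reached Slc26a3.

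The range of both ligands lay above those of Slc12a2 and Cftr, and so did the ranges of Slc26a6, Slc9a2 and Slc26a3 but not that of Slc9a3. The order depends on the length used. With the longest GENCODE transcript in place of the exon length, 4 of the 9 genes kept their place, Guca2b came first at 779 CPM per kilobase and Slc9a3 last at 4.54. Slc9a2 and Slc26a3 were then at 41.9 and 39.5 CPM per kilobase, so the gap between them also depends on the length used. The counts annotation gives Slc9a3 2490 bases of exon, against 5118 in its longest GENCODE transcript. It also gives fewer bases for Slc26a6 (2402 against 4362), Slc9a2 (3493 against 5019) and Atp1b1 (2422 against 2580). Reads in the parts it leaves out would not have been counted.

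**Figure D3:**
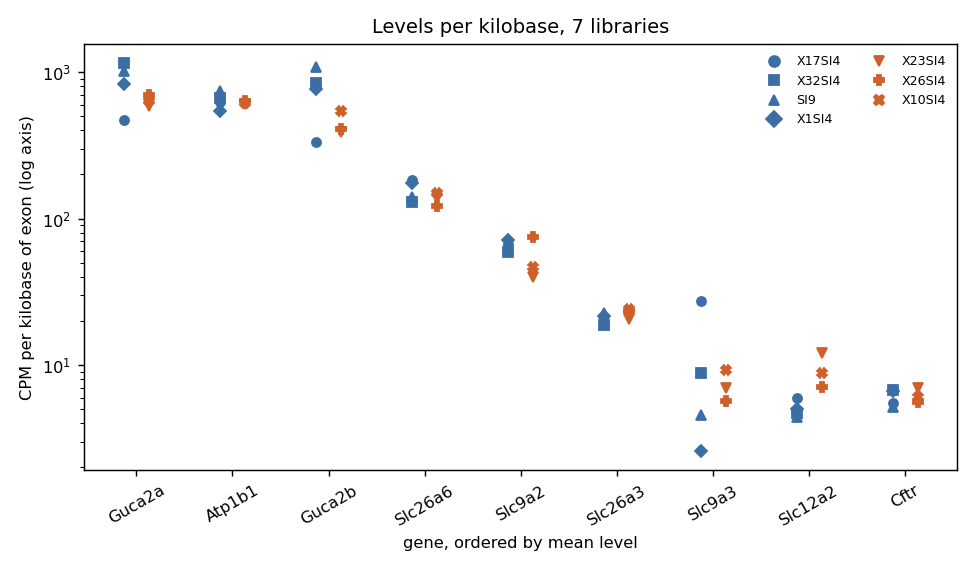
CPM per kilobase of exon (log axis) of the 9 genes in 7 libraries, ordered by their mean, normal cys in blue and low cys in orange, 1 symbol per library. Guca2a, Atp1b1 and Guca2b lie between 333 and 1146 CPM per kilobase, Cftr between 5.17 and 6.96, and Slc9a3 spans 2.59 to 27.4.

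The spread among mice fed alike, which does not use the diet contrast, set the genes apart from each other. The pooled within-diet SD of log2 CPM was 1.15 for Slc9a3, above 98.2% of all genes tested, 0.59 for Guca2b (84.4%) and 0.45 for Guca2a (73.6%). It was 0.32 for Slc9a2 (55.3%), 0.29 for Slc12a2 (50.4%), 0.21 for Slc26a6 (31.2%) and 0.18 for Cftr (24.6%). Atp1b1 at 0.15 (15.4%) and Slc26a3 at 0.13 (10.6%) varied least. Slc12a2 therefore had a middling spread, while the genes with the next largest estimated differences, Guca2b, Slc9a3 and Guca2a, were those that varied most between mice on the same diet.

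Other genes of the pathway were taken from 7 lists by function, 90 genes in all, of which 88 were in the count table and 68 were tested. At an unadjusted edgeR p-value under 0.05, 1 of the 68 was higher on low cys (Pde3b) and 2 were lower (Clcn2 and Ezr), against 2.66% and 2.83% of all genes tested. None of the 68 had an adjusted p-value under 0.05 with edgeR or DESeq2, and the smallest edgeR adjusted p-value was 0.794. The estimate was positive for 27 of the 68, and their median log2 fold change was -0.05, against 0.01 over all genes. The count of 3 was 12 without X17SI4, 1 without SI9, 5 without X26SI4 and 5 with DESeq2. The low cys libraries lay all above the normal cys libraries in 3 of the 68 (Pde3a, Pde3b and Cab39l) and all below in 3 (Clcn2, Ezr and Pdzd3), beside 3.32% and 3.51% of all genes. Pde3a, Cab39l and Pdzd3 were named after their values were seen. Pde3a, a phosphodiesterase like Pde3b, measured 6.49 ± 0.296 CPM (SD, n = 4) on normal cys and 8.06 ± 0.615 CPM (SD, n = 3) on low cys. Cab39l, a partner of the kinases that activate the cotransporter of Slc12a2, measured 20.8 ± 1.24 and 25.03 ± 2.15 CPM, and Pdzd3, a scaffold of guanylate cyclase C, 111 ± 6.49 and 93.6 ± 9.10 CPM. Of the 3 genes past the unadjusted level, Clcn2 stayed past it in each of 14 alternatives. Ezr did not with total counts or without SI9, X23SI4 or X10SI4 (unadjusted edgeR p-value up to 0.1102), and Pde3b did not with no filter or without X32SI4, SI9, X23SI4 or X26SI4 (up to 0.149).

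Among genes of chloride secretion and potassium recycling, 11 were tested, 0 higher and 1 lower at the unadjusted level. Clcn2, a chloride channel of the intestinal epithelium, measured between 199.9 and 224 CPM on normal cys and between 149 and 168 CPM on low cys. The diets did not overlap, with means of 212 ± 11.6 CPM (SD, n = 4) and 160.1 ± 9.82 CPM (SD, n = 3) and a log2 difference of -0.40 (standard error 0.117). The edgeR adjusted p-value was 0.794 (unadjusted 0.00719) and that of DESeq2 0.213. Slc12a7, a potassium-chloride cotransporter, had a log2 difference of -0.24 (standard error 0.129).

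Among exchangers and sodium channels 9 were tested, and 0 passed the unadjusted level in either direction. The most abundant, the sulfate transporter Slc26a2, had a log2 difference of -0.03 (standard error 0.216). Of 6 tested sodium pump genes 0 passed. The beta subunit Atp1b3 had a log2 difference of 0.13 (standard error 0.158).

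Of 15 tested genes of the guanylin receptor and cyclic nucleotide signalling, 1 was higher and 0 lower. Gucy2c, which encodes guanylate cyclase C, measured 330 ± 34.1 CPM (SD, n = 4) on normal cys and 303 ± 17.9 CPM (SD, n = 3) on low cys, and the log2 fold change was -0.12 (standard error 0.132). The receptor thus varied little between mice, while its ligands varied up to 3.26-fold within a diet. Pde3b, a phosphodiesterase that degrades cyclic AMP and that cyclic GMP inhibits, measured 4.60 ± 0.939 CPM (SD, n = 4) and 6.74 ± 1.27 CPM (SD, n = 3), and the log2 fold change was 0.55 (standard error 0.240) and an edgeR adjusted p-value of 0.794. The adenylate cyclase Adcy6 had a log2 difference of 0.09 (standard error 0.122).

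Of 16 tested scaffolds and kinases of ion transporters, 0 were higher and 1 was lower. Ezr, the ezrin that anchors brush border proteins to actin, measured between 1633 and 1947 CPM on normal cys and between 1186 and 1464 CPM on low cys. The diets did not overlap, with means of 1802 ± 130 CPM (SD, n = 4) and 1364 ± 154 CPM (SD, n = 3), a log2 difference of -0.40 (standard error 0.155) and an edgeR adjusted p-value of 0.794. Slc9a3r1, the scaffold NHERF1 that ties NHE3 and the Cftr channel to ezrin, had a log2 difference of -0.49 (standard error 0.231) and overlapped between the diets. X23SI4 had the lowest level of both scaffolds, 1186 CPM of Ezr and 700.1 CPM of Slc9a3r1, and it also had the lowest villus enterocyte marker sum, 23376 CPM. The part of enterocyte content in these values was not tested.

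Of 6 tested carbonic anhydrases and 5 tested aquaporins, 0 passed the unadjusted level in either direction. Car4 and Car13, enzymes that supply bicarbonate and protons to the exchangers, had log2 fold changes of -0.09 (standard error 0.387) and -0.20 (standard error 0.207). The water channels Aqp1 and Aqp11 had -0.54 (standard error 0.377) and -0.24 (standard error 0.243).

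**Figure D4:**
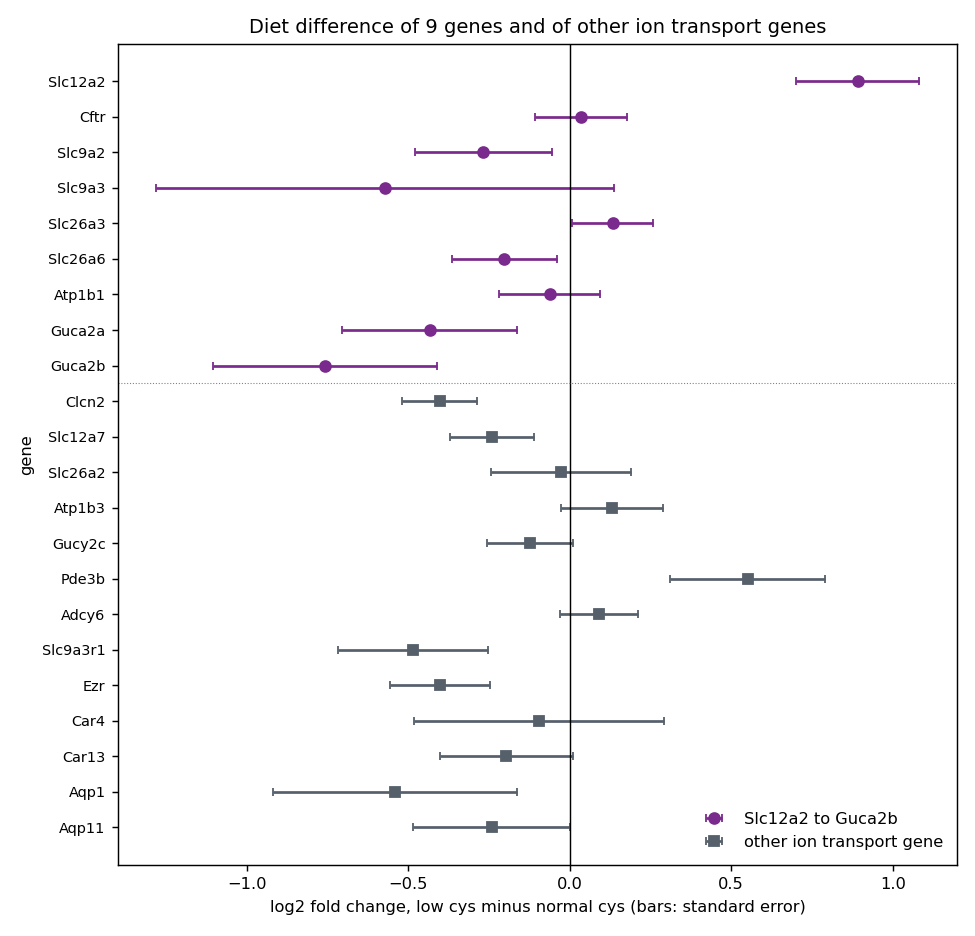
Log2 fold change, low cys minus normal cys, of the 9 genes (purple circles, above the dotted line) and of other ion transport genes (grey squares), with bars of 1 standard error. The other genes drawn are the named ones of the lists and not all that were tested. Slc12a2 lies at 0.89, Slc9a3 at -0.57 with a bar of 0.708 to either side, and Clcn2, Ezr and Pde3b, the listed genes with an unadjusted p-value under 0.05, lie at -0.40, -0.40 and 0.55.

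The scrapings also held other cells. The 7 fibroblast and matrix markers summed to 4.11 to 9.20 CPM on normal cys and to 11.8 to 19.1 CPM on low cys, the 5 endothelial markers to 6.16 to 10.03 and to 10.4 to 13.8 CPM, and the 5 listed B and plasma cell markers found in the table to 196 to 338 and to 357 to 415 CPM. In these 3 sums the low cys libraries lay all above the normal cys libraries, and in every other marker list examined the diets overlapped. Some fibroblast and endothelial markers rested on few counts, such as 0 to 5 per library for Lum and 1 to 11 for Cdh5. Of the single markers behind these 3 sums, only Col3a1, Dcn and Igj were separate between the diets. Igj, the joining chain of antibodies, measured 32.9 to 101.7 CPM on normal cys and 124 to 198 CPM on low cys, while Cd79a, Cd79b, Ms4a1 and Xbp1 overlapped. Smooth muscle markers summed to 2.34 to 12.1 CPM on normal cys and to 5.63 to 38.2 CPM on low cys, enteric neuron and glia markers to 0.523 to 1.21 and to 1.18 to 1.62 CPM, and 4 of 6 pancreatic acinar markers (Prss2, Cela2a, Cela3b and Pnlip) had no count in any library. Paneth cell markers, which sit with Slc12a2 in the crypt, summed to 705 to 4666 CPM on normal cys and 2824 to 5094 CPM on low cys. The ileal enterocyte markers Slc10a2, Fabp6 and Fgf15 were present in every library, at 3221 to 8088 CPM in sum. The part of these cells in the Slc12a2 values was not tested.

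The 5 genes whose pattern over the 7 libraries was most like that of Slc12a2 were Sned1, Prps2, Ppp1r9a, Pank1 and Ncbp2, among 8624 genes with a mean of at least 10 CPM. Likeness was the root mean square difference of log2 CPM after each gene was centred over the libraries. It was 0.14, 0.18, 0.19, 0.21 and 0.22 in that order, against 0.49 for a gene with no variation at all. All of the other 8 genes were less like Slc12a2: Cftr was the closest at 0.46, with 21.0% of genes closer, and Guca2b and Slc9a3 were the farthest at 1.00, with 97.9% and 98.0% of genes closer. With centring within each diet Slc26a6 was the closest of the 8 at 0.20, before Cftr at 0.22. The list depends on the diet difference, since centring within each diet gave 5 others (Chid1, Tmem209, Prss30, Mlxip and Slc38a1) and 0 of the same.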

How the data were processed

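Per the labels, RNA came from 7 small intestine samples, 4 on normal cys and 3 on low cys, and was made into stranded poly(A) libraries. The authors trimmed the reads, removed ribosomal reads, aligned to GRCm38 with STAR and deposited raw counts per gene from featureCounts with an Ensembl annotation, without normalization. The strand setting is not given in the sources used here. Columns not used: 0.

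Genes were filtered with filterByExpr (minimum count 10, minimum total count 15), scaled by TMM and compared with edgeR's robust quasi-likelihood test (edgeR 4.0.16, R 4.3.3) with no covariate and Benjamini-Hochberg adjustment over all genes tested. The standard error is the log2 fold change divided by the square root of its F statistic. Log2 CPM used a prior count of 2. DESeq2 1.42.0, limma-voom (limma 3.58.1), other scalings and filters, and leaving out each library were the alternatives. The script was tested on simulated data. The labels do not name litters or sequencing batches, so p-values measure the spread between these samples.

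The 9 genes and all lists were chosen with earlier results of these data known. Named were the 9 genes, listed ion transport genes with an unadjusted edgeR p-value under 0.05 or among the 2 with the highest mean CPM in their list, and the 5 genes most like Slc12a2. Of the listed genes that this names, 2 are not reported here. Promoters came from RefSeq (GRCm38.p6) and shared 50-base stretches from GENCODE M21 transcripts.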

Additional observations from a re-analysis of the deposited data

How the results depend on the processing

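Of 126 estimates of the 9 genes under alternatives, 120 kept their direction and 6 reversed. Without normal cys replicate 1 (X17SI4), Cftr was at -0.0018 and Slc9a3 at 0.45. Without normal cys replicate 3 (SI9), Cftr was at -0.034 and Atp1b1 at 0.0073. Cftr was at -0.047 without low cys replicate 1 (X23SI4). Scaling by total counts gave Atp1b1 0.082 and Slc26a3 0.28. That scaling moved the median of all genes by 0.14 (log2) and the share of higher genes among those at an unadjusted p-value under 0.05 from 48.5% to 87.8%, against 60.7% with upper quartile factors; of the 9 genes only Atp1b1 changed sign. The estimate of Slc9a3 was -0.03 with limma-voom. Leaving out 1 library at a time gave 0.66 to 1.08 for Slc12a2, -0.64 to -0.25 for Guca2a, -1.003 to -0.53 for Guca2b, -0.047 to 0.131 for Cftr, -0.90 to 0.45 for Slc9a3, -0.135 to 0.0073 for Atp1b1, 0.087 to 0.21 for Slc26a3, -0.28 to -0.10 for Slc26a6, 0.28 to 0.64 for the balance and 2.90 to 7.56 percentage points for the guanylin share, whose difference was 4.95.

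Genes with an adjusted p-value under 0.05 numbered 16 with DESeq2 and 0 to 1 with a library left out. Without 1 library, 258 to 1763 genes were past an unadjusted p-value of 0.05, and of the listed ion transport genes 5 with DESeq2 and 1 to 12 with a library left out. The cause of these changes was not tested. The diets were given to different mice and no pairing between them is described, so no paired analysis was made. The labels give no replicate numbers, and those used here only follow the order of the samples. With 3 and 4 mice, no batch given, and groups fixed by the labels alone, estimates smaller than the spread between mice are not resolved.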

Other observations

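Among the 4 normal cys libraries, X17SI4 was the highest for Slc9a3 and Slc26a6 and the lowest for Guca2a and Guca2b, and it also had the highest sums of crypt and Paneth cell markers of its diet. X1SI4 was the opposite end for Slc9a3, at 6.45 CPM, with the highest sums of goblet cell markers, 22092 CPM, and of distal ileum enterocyte markers, 8088 CPM. In a test for a single outlying library (gap to the nearest library over the range of the 4 normal cys libraries), Slc9a3 in X17SI4 reached 0.749, which is under Dixon's 95% critical value. Of 41 values examined in this way, 0 passed it, where chance would give 2.05. The 41 values come from the same 4 mice and are not independent of each other, and a test on 4 values can miss an outlying library. The count of 0 therefore does not show that no library is outlying.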
